A study of Homo sapiens with 6 samples.

Results

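Autophagy is carried out by a set of proteins that act in a fixed order, and the genes of its core machinery, its cargo receptors and its transcription factors are described here in HT29 cells depleted of FITM2. HT29 is an established human colorectal adenocarcinoma line, and FITM2 is a membrane protein of the endoplasmic reticulum needed for lipid droplet formation. The members are the rows of the gene count table whose symbol is in a list of 43 autophagy genes, out of 58978 rows in all, and each of the 43 symbols matched exactly 1 row. The groups were cells with a hairpin against FITM2 (shFITM2, 3 libraries, genotype given as FITM2 knockdown) and cells with a control hairpin (shCTRL, 3 libraries, genotype given as WT), all of them labelled untreated and grown in the same serum-containing medium. The labels name neither the hairpin sequences nor a starvation or lysosomal block, and they do not say whether a group came from 1 clone or from separate cultures.

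In autophagy a cup of membrane grows next to the endoplasmic reticulum, closes around its cargo and fuses with a lysosome. The ULK1 kinase complex starts the process, a class III phosphatidylinositol 3-kinase marks the site with PI3P, and ATG9A, the ATG2 proteins and the WIPI family bring in membrane and lipid. A ubiquitin-like conjugation system then attaches the ATG8 proteins (the LC3 and GABARAP proteins) to the membrane, where cargo receptors such as SQSTM1 bind them. TFEB and TFE3 activate genes of lysosomes and autophagy. Autophagy also degrades lipid droplets, a route called lipophagy. Transcript levels do not measure autophagic flux, which was not assayed here.

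The shFITM2 libraries held 16964075 to 18263911 counts and the shCTRL libraries 17176487 to 18855731. FITM2 itself had 4.83, 5.98 and 4.95 CPM (read counts scaled to a common library size with TMM factors) in shFITM2 libraries, against 13.2, 10.5 and 10.4 CPM in shCTRL libraries, a log2 fold change of −1.12 ± 0.157 (SE; edgeR quasi-likelihood test, adjusted p = 0.000242). By an exact two-sided permutation test of FITM2 over the libraries p was 0.1, which is the minimum for groups of 3. Of 10 markers of colorectal epithelium, 9 averaged at least 1 CPM and CDX1 lay below (0.647 CPM), with summed levels of 13241 to 13972 CPM in shFITM2 and 9742 to 11739 CPM in shCTRL. Of 7 fibroblast markers COL1A1 alone averaged 1 CPM or more, and none of 4 endothelial markers did. Among leukocyte markers LYZ and CD14 did, while PTPRC, CD3E and ITGAM lay below. Per 10 percentage points of transcript GC content, log2 expression relative to the mean of all libraries had a slope of 0.26, 0.23 and 0.18 in the shFITM2 libraries and −0.27, −0.34 and −0.06 in the shCTRL libraries, so the library of shCTRL replicate 3 stood between its group and shFITM2. All results are therefore given from the group fit and from the same test with an offset that removes each library's GC trend (GC-adjusted).

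Autophagy genes changed in both directions. Of 42 members tested (ULK2, with 4 to 12 reads in a library, was below the expression filter), 16 were called higher and 13 lower in shFITM2 at an adjusted p under 0.05, or 69.0% of the tested members. Among all 14809 genes tested, 48.7% were called, 24.2% higher and 24.5% lower. With a filter of at least 1 CPM on average, 7166 of 13402 genes were called. The members were not matched to other genes by expression level. With the GC offset 11 members were higher and 7 lower (42.9%), against 29.2% of all 14635 genes, 11.8% higher and 17.4% lower. The median log2 fold change of the tested members was −0.02 in the group fit and 0.08 GC-adjusted, against −0.0002 and −0.03 over all genes. The members thus did not all change in 1 direction in either fit. In the group fit 38.1% of tested members were called higher and 31.0% lower. GC-adjusted these were 26.2% and 16.7%, above the share of all genes on the higher side only. That difference was not tested. Past the call and a change of at least 2-fold lay 4 members in the group fit (ULK1, ATG101, MAP1LC3A, GABARAPL1; 5.27% of all genes) and 2 GC-adjusted (GABARAPL1, ATG9A; 1.74% of all genes). At an adjusted p under 0.01 the group fit called 13 members higher and 6 lower (15.9% and 17.4% of all genes, 33.3% in either direction), and the GC-adjusted fit 7 higher and 3 lower (6.74% and 10.8% of all genes, 17.6% in either direction).

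The direction was called alike in both fits for 13 members (17.9% of all genes), higher for 8 (ULK1, ATG101, WIPI1, WIPI2, WDR45, GABARAPL1, OPTN, TFEB) and lower for 5 (PIK3R4, ATG9A, ATG3, MAP1LC3B, TAX1BP1). Among all genes with both fits, 7.91% were called higher in both and 10.0% lower in both. RB1CC1 and ATG4B were called in opposite directions by the fits, as were 2.15% of all genes. The group fit alone called a further 14 members, the GC-adjusted fit alone NBR1, VMP1 and ATG16L1, and 10 tested members were called in neither. Of the 13 members, 7 kept their call in both fits under all 13 alternatives of the group fit and all 9 of the GC-adjusted fit. These were ULK1, WIPI2, GABARAPL1, OPTN and TFEB, which were higher, and PIK3R4 and ATG9A, which were lower. How many of all genes kept their calls in this way was not counted. Over the GC-adjusted alternatives the adjusted p reached 0.0499 for WIPI2 and 0.0404 for TFEB, close to the threshold.

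The counts depended on single libraries, over all genes as among the members. Without shCTRL replicate 1 or shFITM2 replicate 1 the group fit called 7 and 8 members lower in place of 13. Over all genes and in either direction it then called 5665 of 15215 and 5338 of 15188, in place of 7205 of 14809. The GC-adjusted fit called 10 members without shFITM2 replicate 1 and 11 without shFITM2 replicate 2, in place of 18. Over all genes it then called 2806 of 15004 and 2910 of 15029, in place of 4273 of 14635. Its 7 members called lower became 3 without shFITM2 replicate 1 or 2, and 4 without shFITM2 replicate 3, shCTRL replicate 1 or shCTRL replicate 2. Without shFITM2 replicate 1 its 11 members called higher became 7. Calls by direction over all genes were not counted for the fits that leave out a library. Without shCTRL replicate 3, which stood apart, 17 members were higher and 16 lower in the group fit and 12 and 7 GC-adjusted. Over all genes the fits without that library called 9008 of 15255, and 5615 of 15073 GC-adjusted. The library of shCTRL replicate 3 had the highest control value in 12 of the 16 members called higher and the lowest in 11 of the 13 called lower. This was not counted over all genes. Over all genes the GC slope of that library also stood between the other controls and shFITM2.

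**Figure D1:**
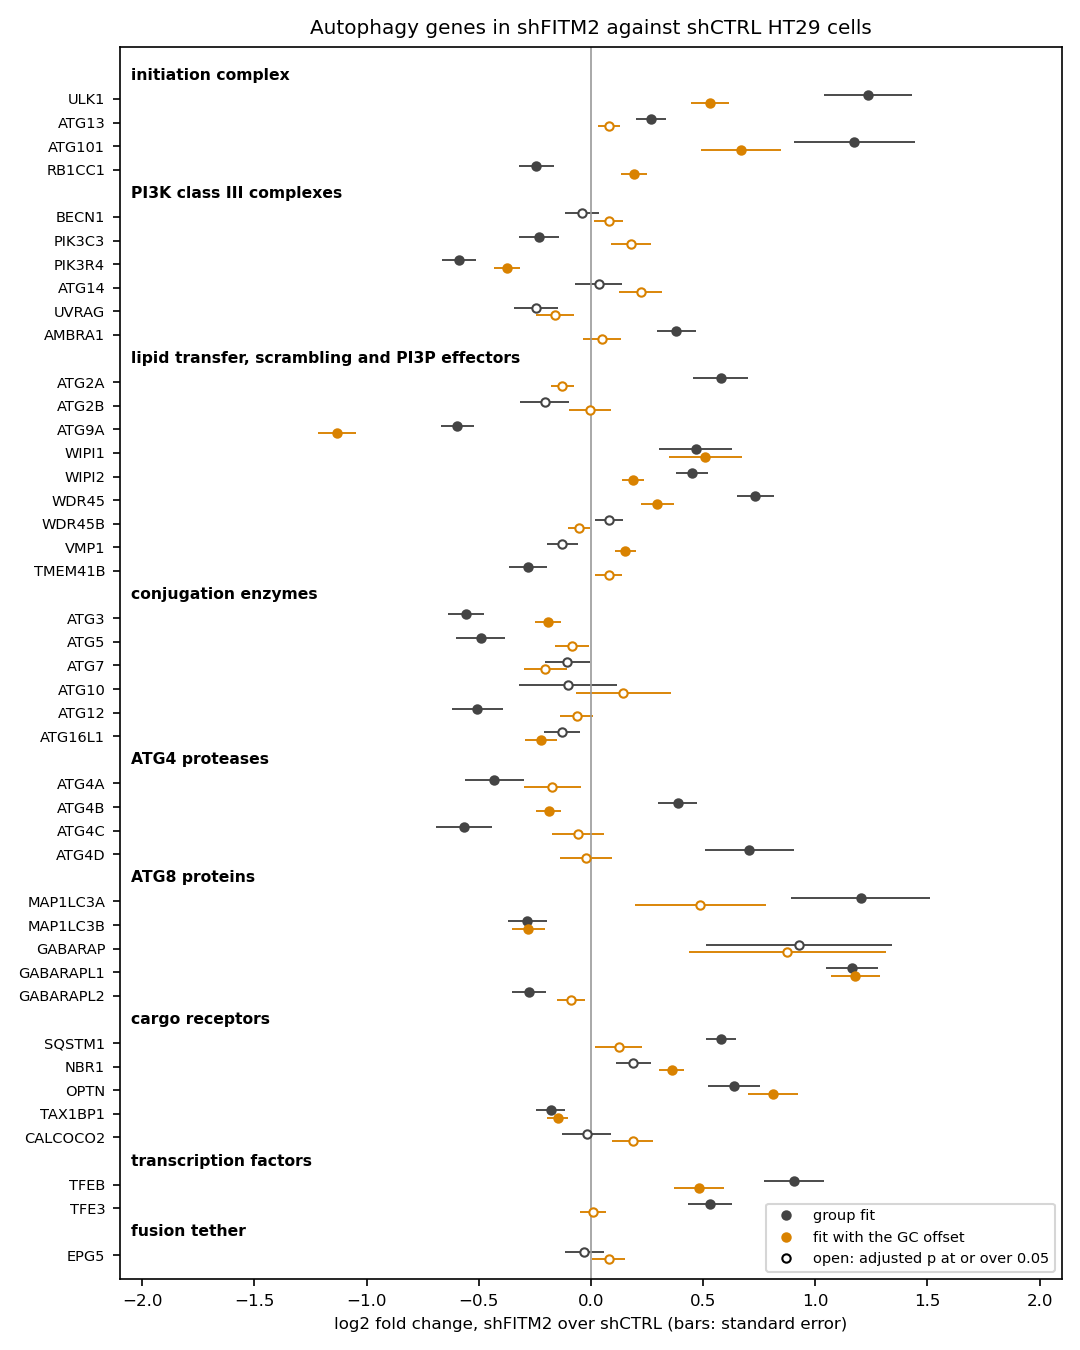
Log2 fold change of shFITM2 over shCTRL (x axis, bars are standard errors, 3 libraries per group) for the 42 tested members, ordered by role. Dark points are the group fit and orange points the GC-adjusted fit, and filled points have an adjusted p under 0.05. GABARAPL1 lies near 1.2 in both fits, whereas ATG9A lies further below 0 with the GC offset.

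Member fold changes followed GC content as those of other genes did. Transcript GC and the log2 fold change had a Spearman correlation of 0.698 over the 42 members and of 0.744 over all genes. This describes genes of the same 6 libraries, which are not replicates. Median GC was 57.9% in the members called higher in the group fit, 40.0% in those called lower and 46.1% in those not called. After the offset the correlation was 0.0942 for the members and 0.00305 for all genes. GC-linked biology and GC-linked library differences are both taken out by the offset, and they cannot be told apart here.

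**Figure D2:**
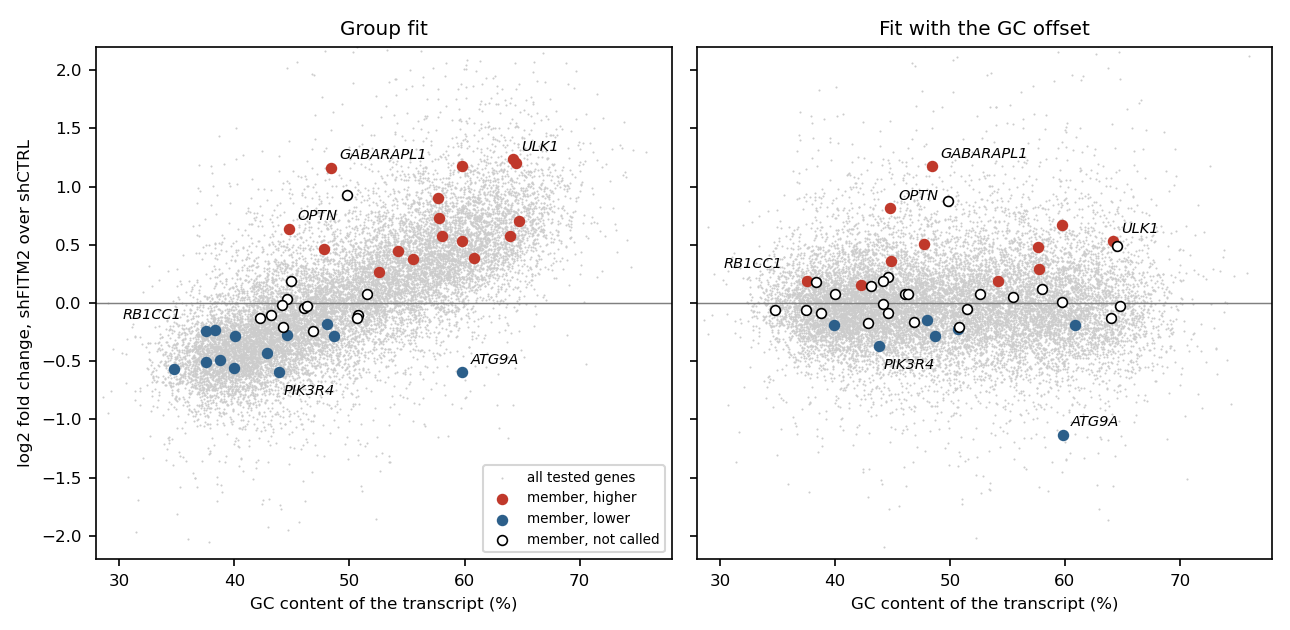
Log2 fold change of shFITM2 over shCTRL (y axis) against the GC content of 1 transcript per gene (x axis, %), in the group fit (left) and with the GC offset (right). Grey points are all tested genes (33 genes at left and 14 at right lie outside the axes), red members were called higher, blue lower, and open circles were not called. The slope of the grey cloud is gone at right, GABARAPL1 and OPTN stay high, and ATG9A falls below most genes of like GC content.

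In the ULK1 complex, which starts autophagy, ULK1 and ATG101 were called higher in both fits. Of its 4 tested members 3 were called higher and 1 lower in the group fit (24.2% and 24.5% of all genes). GC-adjusted, 3 were higher and none lower (11.8% and 17.4% of all genes). Differences between a role and all genes were not tested, here or for the roles below. ULK1, the kinase (ENSG00000177169, chromosome 12, 131894651 to 131923167, plus strand, GRCh38), had 60.8, 57.8 and 55.2 CPM in shFITM2 libraries and 22.4, 18.3 and 33.3 CPM in shCTRL libraries. The groups did not overlap, and the control spread came mostly from replicate 3. The fold change on the log2 scale was 1.23 ± 0.196 (adjusted p = 0.00167) and 0.53 ± 0.084 GC-adjusted (adjusted p = 0.000223). ATG101, which stabilises ATG13 within the complex, had 29.5, 27.0 and 23.9 CPM in shFITM2 libraries and 9.75, 8.33 and 17.7 CPM in shCTRL libraries, again without overlap. Its log2 fold change was 1.17 ± 0.27 (adjusted p = 0.0106) and 0.67 ± 0.179 GC-adjusted (adjusted p = 0.0216). The GC-adjusted call of ATG101 was lost without shFITM2 replicate 1, shFITM2 replicate 2 or shCTRL replicate 1 (adjusted p = 0.0752, 0.0667 and 0.0908).

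The adaptor gene ATG13 rose by 0.27 in the group fit (adjusted p = 0.00676) and had 0.08 GC-adjusted (adjusted p = 0.251). The group call of ATG13 was lost without shFITM2 replicate 2 (adjusted p = 0.0529). RB1CC1, which encodes the large scaffold FIP200, turned direction. It had 86.8, 82.8 and 97.1 CPM in shFITM2 libraries and 104, 110.0 and 101 CPM in shCTRL libraries, for a log2 fold change of −0.24 ± 0.079 (adjusted p = 0.0242) and of 0.19 ± 0.058 with the offset (adjusted p = 0.0215). At 37.6% GC its transcript was among those lowest in GC of the members. The group call of RB1CC1 was lost without shFITM2 replicate 1 or 2 or shCTRL replicate 1 or 2 (adjusted p = 0.0613 to 0.132). It was also lost with a replicate block (adjusted p = 0.0572). The GC-adjusted call was lost without shFITM2 replicate 1 or 3 or shCTRL replicate 1 or 2 (adjusted p = 0.0596 to 0.131). ULK2, a second kinase of the family, had 4, 5 and 8 reads in shFITM2 libraries and 12, 10 and 8 in shCTRL libraries and was not tested.

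Among the class III phosphatidylinositol 3-kinase genes, PIK3R4 was called lower in both fits. Of 6 members 1 (AMBRA1) was called higher and 2 (PIK3R4, PIK3C3) lower in the group fit (24.2% and 24.5% of all genes). GC-adjusted, PIK3R4 alone was called, lower (17.4% of all genes). PIK3R4, the regulatory subunit that anchors the kinase (chromosome 3, 130678935 to 130746829, minus strand), had 51.8, 57.8 and 55.4 CPM in shFITM2 libraries and 84.2, 84.6 and 79.4 CPM in shCTRL libraries. The groups were far apart relative to their spread. The log2 fold change was −0.59 ± 0.076 (adjusted p = 0.000157) and −0.37 ± 0.059 GC-adjusted (adjusted p = 0.000232). PIK3C3, the catalytic subunit, had −0.23 ± 0.088 (adjusted p = 0.0469) and 0.18 ± 0.091 GC-adjusted (adjusted p = 0.158). That PIK3C3 group call was lost without shFITM2 replicate 1, 2 or 3 or shCTRL replicate 1 or 2 (adjusted p = 0.0592 to 0.141). DESeq2 size factors, the DESeq2 Wald test, no expression filter and a replicate block also lost it (adjusted p = 0.0517, 0.106, 0.145 and 0.098). Without shCTRL replicate 3 PIK3C3 was instead called higher in the GC-adjusted fit (0.26, adjusted p = 0.0191).

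AMBRA1, which binds Beclin 1, rose by 0.38 in the group fit (adjusted p = 0.00388) and had 0.05 GC-adjusted (adjusted p = 0.718). BECN1, encoding Beclin 1 itself, had 46.5, 45.3 and 45.9 CPM in shFITM2 libraries and 47.5, 47.5 and 46.6 CPM in shCTRL libraries, with −0.04 ± 0.075 (adjusted p = 0.676) and 0.08 ± 0.065 GC-adjusted (adjusted p = 0.398). ATG14, which directs the kinase to the autophagosome, had 0.04 and 0.22 (adjusted p = 0.802 and 0.0977), and UVRAG, its counterpart at endosomes, had −0.24 and −0.16 (adjusted p = 0.0558 and 0.18). The UVRAG group value was called without shCTRL replicate 2 or 3 (adjusted p = 0.0379 and 0.0116). BECN1 shares 300 exon bases with PSME3 on the opposite strand, which had 498% of its reads.

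Among the genes of lipid transfer, scrambling and PI3P binding, WIPI1, WIPI2 and WDR45 were called higher and ATG9A lower in both fits. Of 9 members 4 were higher and 2 lower in the group fit (24.2% and 24.5% of all genes). GC-adjusted, 4 were higher and 1 lower (11.8% and 17.4% of all genes). ATG9A, the lipid scramblase carried on small Golgi-derived vesicles (chromosome 2, 219219380 to 219229717, minus strand), had 45.1, 43.6 and 45.5 CPM in shFITM2 libraries and 66.2, 69.8 and 66.6 CPM in shCTRL libraries. Each group varied by under 2 CPM (SD 1.014 in shFITM2 and 1.97 in shCTRL) and they did not overlap. Its log2 fold change was −0.60 ± 0.074 (adjusted p = 0.000134) and −1.13 ± 0.085 GC-adjusted (adjusted p = 6.13e-07), with a transcript of 59.8% GC. ATG9A shares 1833 exon bases with AC068946.2 on the same strand, which averaged 1.5 reads.

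The promoter of ATG9A is shown because the gene fell furthest of all members, and those of GABARAPL1 and ATG3 follow with their genes. Each runs from 250 bases before to 50 bases after the RefSeq start (GRCh38.p14), and capitals mark the motifs searched on both strands. These were the E-box CACGTG and its extension TCACGTGA (which overlaps it), both of the kind that TFEB and TFE3 bind, the antioxidant response element core TGACNNNGC, and the GC box GGGCGG. ATG9A lies on the minus strand at chr2:219229587-219229886, with 2 GC boxes and no other match.
ATG9A: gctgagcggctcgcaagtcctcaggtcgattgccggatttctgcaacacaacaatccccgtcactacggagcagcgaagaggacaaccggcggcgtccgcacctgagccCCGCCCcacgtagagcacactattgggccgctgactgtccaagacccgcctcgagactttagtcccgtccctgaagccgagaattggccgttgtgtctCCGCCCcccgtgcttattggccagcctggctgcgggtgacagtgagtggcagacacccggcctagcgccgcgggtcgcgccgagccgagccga

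RefSeq promoters were found for 37 of the 43 members (48 windows, since some genes have several starts). CACGTG was present in 4.17% of the member windows and in 7.26% of all 35116 promoters, TCACGTGA in 2.08% and 0.98%, TGACNNNGC in 6.25% and 13.3%, and GGGCGG in 68.8% and 44.95%. The member genes with a CACGTG were ATG3 and ATG14, and those with a TGACNNNGC were ATG101, MAP1LC3B and CALCOCO2. A match says only that these letters are in this window.

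WIPI2, the PI3P-binding protein that recruits ATG16L1 (chromosome 7, 5190188 to 5233826, plus strand), had 152, 156 and 153 CPM in shFITM2 libraries and 109, 107 and 120.2 CPM in shCTRL libraries, with no overlap. It rose by 0.45 ± 0.07 (adjusted p = 0.000411) and by 0.19 ± 0.048 GC-adjusted (adjusted p = 0.00737). WDR45, also called WIPI4 and a partner of the ATG2 proteins, had 60.9, 54.9 and 56.5 CPM in shFITM2 libraries and 35.9, 32.9 and 34.9 CPM in shCTRL libraries. It rose by 0.73 ± 0.083 (adjusted p = 8.19e-05) and by 0.30 ± 0.075 GC-adjusted (adjusted p = 0.00705), a call lost without shFITM2 replicate 1 (adjusted p = 0.0521). WIPI1 was scarcer, at 6.81, 6.33 and 6.19 CPM in shFITM2 libraries and 4.45, 4.27 and 5.28 CPM in shCTRL libraries. It rose by 0.47 ± 0.161 and by 0.51 ± 0.164 GC-adjusted (adjusted p = 0.0317 and 0.0279). Both WIPI1 calls were lost without shFITM2 replicate 1, 2 or 3 or shCTRL replicate 1 or 2 (adjusted p = 0.0609 to 0.113 and 0.0591 to 0.109). No expression filter, the DESeq2 Wald test and a replicate block also lost the group call (adjusted p = 0.0534, 0.0583 and 0.056). The GC content of the longest transcript of any kind lost the GC-adjusted call (adjusted p = 0.0632). WDR45B, the closest relative of WDR45, averaged 142 ± 2.62 CPM across shFITM2 libraries and 134 ± 2.79 CPM across shCTRL libraries (SD, n = 3 each) and was called in neither fit, with 0.08 and −0.05. WIPI1 shares 828 exon bases with ARSG on the opposite strand, which had 42.9% of its reads. WDR45B shares 53 with FOXK2 on the opposite strand, which had 60.6% of its reads. On the same strand, WDR45 shares 757 exon bases with PRAF2, which had 3.94% of its reads.

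The ATG2 lipid transfer proteins are encoded by ATG2A and ATG2B. ATG2A had 121 ± 3.97 CPM in shFITM2 and 81.0 ± 16.3 CPM in shCTRL and rose by 0.58 ± 0.122 in the group fit (adjusted p = 0.0035), but had −0.13 ± 0.051 GC-adjusted (adjusted p = 0.0735), where its groups were in the opposite order. ATG2B had −0.21 and −0.004, called in neither fit, although its group value was called without shCTRL replicate 3 (adjusted p = 0.0229). ATG2B shares 419 exon bases with GSKIP on the opposite strand, which had 131% of its reads. The scramblases of the endoplasmic reticulum VMP1 and TMEM41B also act in lipid droplet and lipoprotein formation, and each was called in 1 fit only. VMP1 had −0.13 ± 0.068 (adjusted p = 0.142) and 0.15 ± 0.046 GC-adjusted (adjusted p = 0.0191). TMEM41B had −0.28 ± 0.084 (adjusted p = 0.016) and 0.08 ± 0.06 GC-adjusted (adjusted p = 0.35). The GC-adjusted call of VMP1 was lost without shFITM2 replicate 2, shFITM2 replicate 3 or shCTRL replicate 2 (adjusted p = 0.103, 0.0724 and 0.0555), while in the group fit VMP1 was called lower without shCTRL replicate 3 (adjusted p = 0.00449). The group call of TMEM41B was lost without shFITM2 replicate 1 or shCTRL replicate 1 (adjusted p = 0.0833 and 0.0749). With the GC content of the longest transcript of any kind, VMP1 had 0.27.

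**Figure D3:**
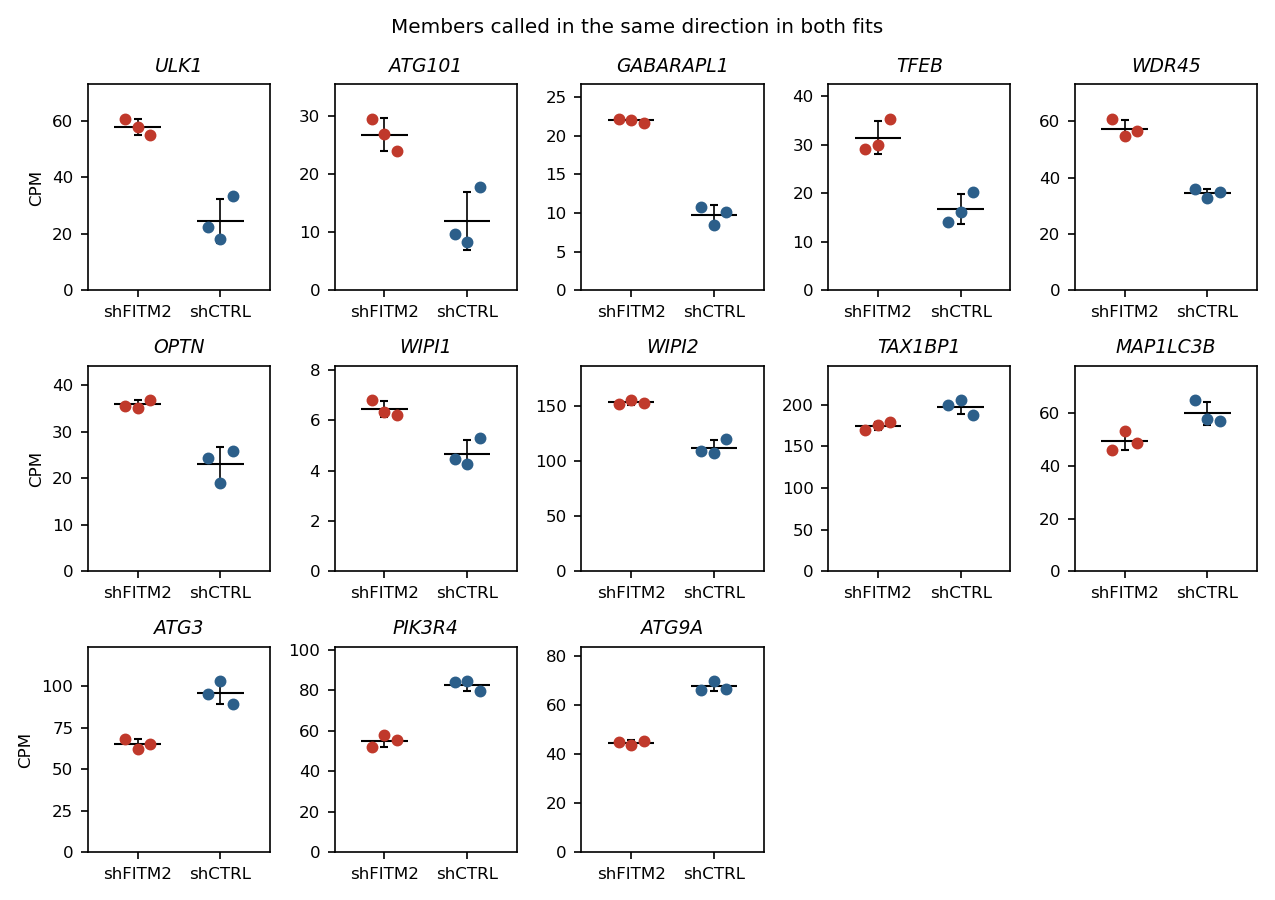
CPM (y axis, from 0) in each library of shFITM2 (red, left) and shCTRL (blue, right) for the 13 members called in the same direction in both fits. Points are libraries, horizontal lines the mean and vertical bars the SD of 3. The panels were chosen by those calls, and the groups overlap in none of the 13. Over all tested genes the groups do not overlap for 59.0%. In ULK1 and ATG101 the third control library lies above the other controls.

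Conjugation enzymes were lower or not called. Of 6 members none was higher and 3 were lower in the group fit (24.2% and 24.5% of all genes). GC-adjusted, none was higher and 2 were lower (11.8% and 17.4% of all genes). ATG3, the enzyme that transfers ATG8 proteins to phosphatidylethanolamine, had 67.9, 62.5 and 65.3 CPM in shFITM2 libraries and 95.4, 103 and 89.3 CPM in shCTRL libraries. The lowest control exceeded the highest shFITM2 library by a wide margin, and the log2 fold change was −0.56 ± 0.078 (adjusted p = 0.000251) and −0.19 ± 0.059 GC-adjusted (adjusted p = 0.0227). The GC-adjusted ATG3 call was lost without shFITM2 replicate 2, shFITM2 replicate 3 or shCTRL replicate 2 (adjusted p = 0.126, 0.104 and 0.0515). Its promoter (chr3:112561913-112562212, minus strand) was the only member window with TCACGTGA, and it also held another CACGTG and 1 GC box.
ATG3: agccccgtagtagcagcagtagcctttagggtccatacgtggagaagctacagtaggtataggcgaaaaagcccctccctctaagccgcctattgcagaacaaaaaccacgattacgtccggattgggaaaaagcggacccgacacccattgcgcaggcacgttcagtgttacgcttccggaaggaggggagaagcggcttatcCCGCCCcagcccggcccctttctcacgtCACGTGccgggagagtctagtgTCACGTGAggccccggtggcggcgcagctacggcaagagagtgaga

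ATG5 and ATG12, which are joined to each other in the complex that guides ATG3, fell by 0.49 and 0.51 in the group fit (adjusted p = 0.00346 and 0.00374). With the GC offset ATG5 had −0.08 and ATG12 −0.06 (adjusted p = 0.452 and 0.574). In both genes shCTRL replicate 3, at 44.8 and 51.6 CPM, was the control nearest to shFITM2. ATG16L1, the third part of that complex, had 43.7, 41.1 and 39.9 CPM in shFITM2 libraries and 46.8, 45.3 and 44.2 CPM in shCTRL libraries. Its log2 fold change was −0.13 ± 0.08 (adjusted p = 0.207) and −0.22 ± 0.07 GC-adjusted (adjusted p = 0.0263). The ATG16L1 call was lost without shFITM2 replicate 1, 2 or 3 or shCTRL replicate 1 or 2 (adjusted p = 0.0507 to 0.12), and with the GC content of the longest transcript of any kind (adjusted p = 0.168). ATG7, the activating enzyme, had −0.11 and −0.20, and ATG10, the enzyme that joins ATG12 to ATG5, had −0.10 and 0.15, called in neither fit. ATG10 had 51 to 85 reads and shares exon bases with RPS23 on the opposite strand, which had 842% of its reads. Likewise ATG7, ATG12 and ATG3 share exon bases with VGLL4, AP3S1 and SLC35A5 on the opposite strand. Those had 99.1%, 122% and 63.6% of their reads.

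The ATG4 proteases, which trim ATG8 proteins before conjugation and release them from membranes later, split in the group fit and lost that pattern with the offset. ATG4B and ATG4D were called higher and ATG4A and ATG4C lower, while GC-adjusted ATG4B alone was called, lower. ATG4B, the main protease of the family, had 100.3, 95.8 and 99.3 CPM in shFITM2 libraries and 71.8, 69.3 and 85.0 CPM in shCTRL libraries, a log2 fold change of 0.39 ± 0.086 (adjusted p = 0.00334) and of −0.19 ± 0.055 GC-adjusted (adjusted p = 0.0164). The GC-adjusted ATG4B call was lost without shFITM2 replicate 1 or 2 (adjusted p = 0.078 and 0.0951). ATG4D had 0.71 ± 0.199 and −0.02 ± 0.117 (adjusted p = 0.0148 and 0.911), ATG4A −0.43 and −0.17 (adjusted p = 0.0181 and 0.348), and ATG4C −0.57 and −0.06 (adjusted p = 0.00305 and 0.764). The group call of ATG4D was lost without shFITM2 replicate 1 or shCTRL replicate 1 (adjusted p = 0.064 and 0.062), and that of ATG4A without shFITM2 replicate 2 or shCTRL replicate 1 (adjusted p = 0.0846 and 0.0674). Transcript GC was 64.8% for ATG4D and 60.9% for ATG4B, and 42.9% for ATG4A and 34.8% for ATG4C. ATG4D and ATG4B share exon bases with KRI1 and THAP4 on the opposite strand, which had 159% and 63.6% of their reads.

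The ATG8 genes changed in opposite directions, GABARAPL1 upward and MAP1LC3B downward in both fits. Their coding ends are shown because the proteins differ there. ATG4 proteases cut each protein just after a glycine, whose codon is in capitals, so the bases after it and before the stop codon encode the part that is removed. The last 45 coding bases, from GENCODE release 29, were as follows.
MAP1LC3A: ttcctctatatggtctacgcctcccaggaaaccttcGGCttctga
MAP1LC3B: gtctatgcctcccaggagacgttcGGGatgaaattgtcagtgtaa
GABARAP: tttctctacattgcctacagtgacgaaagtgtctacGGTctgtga
GABARAPL1: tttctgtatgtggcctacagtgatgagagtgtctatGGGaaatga
GABARAPL2: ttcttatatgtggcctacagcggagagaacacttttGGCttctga

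MAP1LC3B encodes 5 codons after the glycine and the other 4 genes 1 codon. In global alignments of the coding sequences GABARAPL1 was 76.8% identical to GABARAP, 62.1% to GABARAPL2 and 51.7% to MAP1LC3B. MAP1LC3A was 71.2% identical to MAP1LC3B.

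GABARAPL1 (ENSG00000139112, chromosome 12, 10212458 to 10223130, plus strand) had 22.2, 22.1 and 21.6 CPM in shFITM2 libraries and 10.8, 8.49 and 10.1 CPM in shCTRL libraries. All shFITM2 libraries lay at about 2.24 times the control mean. Its log2 fold change was 1.164 ± 0.116 (adjusted p = 5.02e-05) and 1.18 ± 0.109 GC-adjusted (adjusted p = 1.85e-06). Its transcript has 48.4% GC, near the median of all genes (48.7%). Over the alternatives the value stayed between 1.06 and 1.24 in the group fit and between 1.08 and 1.25 GC-adjusted. The GABARAPL1 promoter (chr12:10212627-10212926, plus strand) held 2 overlapping GC boxes and no E-box.
GABARAPL1: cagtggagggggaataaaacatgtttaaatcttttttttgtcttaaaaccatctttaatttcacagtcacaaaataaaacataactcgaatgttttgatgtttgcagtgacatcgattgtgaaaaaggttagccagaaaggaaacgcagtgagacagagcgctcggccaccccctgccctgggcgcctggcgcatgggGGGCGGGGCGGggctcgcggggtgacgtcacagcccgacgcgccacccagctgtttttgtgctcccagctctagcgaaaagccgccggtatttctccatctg

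MAP1LC3B, which encodes the LC3 protein used most as an autophagosome marker, had 46.2, 53.1 and 48.8 CPM in shFITM2 libraries and 65.1, 58.0 and 57.1 CPM in shCTRL libraries. The gap between the groups was about 4 CPM, and the log2 fold change was −0.28 ± 0.087 (adjusted p = 0.0187) and −0.28 ± 0.073 GC-adjusted (adjusted p = 0.00895). The group call of MAP1LC3B was lost without shFITM2 replicate 1, shFITM2 replicate 3 or shCTRL replicate 1 (adjusted p = 0.0942, 0.0654 and 0.0935), and the GC-adjusted call without shFITM2 replicate 1 or shCTRL replicate 1 (adjusted p = 0.0735 and 0.0588). MAP1LC3B shares 150 exon bases with FBXO31 on the opposite strand, which had 50.5% of its reads. The coding sequence of MAP1LC3B2, a near copy on chromosome 12, matched MAP1LC3B at 376 of 378 bases, so reads may be split between them. MAP1LC3B2 had 3.68, 4.37 and 4.72 CPM in shFITM2 libraries and 2.44, 2.54 and 3.17 CPM in shCTRL libraries, with a log2 fold change of 0.65 (adjusted p = 0.0231) and 0.53 GC-adjusted (adjusted p = 0.07). The MAP1LC3B2 call was lost without shFITM2 replicate 2 or 3 or shCTRL replicate 1 or 2 (adjusted p = 0.0563 to 0.0857), and without shCTRL replicate 3 the GC-adjusted value was called (adjusted p = 0.0342).

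GABARAPL2 had 63.2, 64.7 and 57.5 CPM in shFITM2 libraries and 75.4, 75.9 and 73.0 CPM in shCTRL libraries. It fell by 0.27 ± 0.076 in the group fit (adjusted p = 0.0106), a call lost without shFITM2 replicate 3 (adjusted p = 0.0569), and had −0.09 ± 0.064 GC-adjusted (adjusted p = 0.323). MAP1LC3A was rare, at 2.25, 3.11 and 2.71 CPM in shFITM2 libraries and 1.17, 0.757 and 1.58 CPM in shCTRL libraries, from 14 to 54 reads. It rose by 1.203 ± 0.309 (adjusted p = 0.00752) and had 0.49 ± 0.292 GC-adjusted (adjusted p = 0.234). GABARAP had 13, 19 and 16 reads in shFITM2 libraries and 7, 11 and 8 in shCTRL libraries, 0.93 ± 0.415 (adjusted p = 0.0847) and 0.88 ± 0.438 GC-adjusted (adjusted p = 0.151). GABARAP shares 691 exon bases with a gene on the same strand, AC120057.2, to which no read was assigned. The part of that overlap in the low GABARAP level was not tested.

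Per kilobase of the gene length given in the table, the 5 ATG8 genes together had 37.0 ± 1.82 CPM per kb in shFITM2 and 39.2 ± 1.19 CPM per kb in shCTRL (SD, n = 3 each), a difference similar to the spread between libraries. GABARAPL1 made up 14.9%, 13.9% and 14.97% of that sum in shFITM2 libraries and 6.52%, 5.37% and 6.44% in shCTRL libraries. The share of GABARAPL2 was 55.1 ± 1.75% in shFITM2 and 62.9 ± 1.70% in shCTRL, and that of MAP1LC3B 25.1 ± 1.165% and 28.8 ± 1.21% in the same order. MAP1LC3A made up 4.12 ± 0.55% in shFITM2 and 1.69 ± 0.619% in shCTRL. These shares are not GC-adjusted and carry no test. The GABARAP part of the sum rests on 7 to 19 reads in a library. How reads shared with AC120057.2 were counted is not known, so that part may be too low. The gene length covers all exons of a gene, such as 3034 bases for GABARAPL2, whose transcript used for GC content has 1002. The shares depend on that choice of length.

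**Figure D4:**
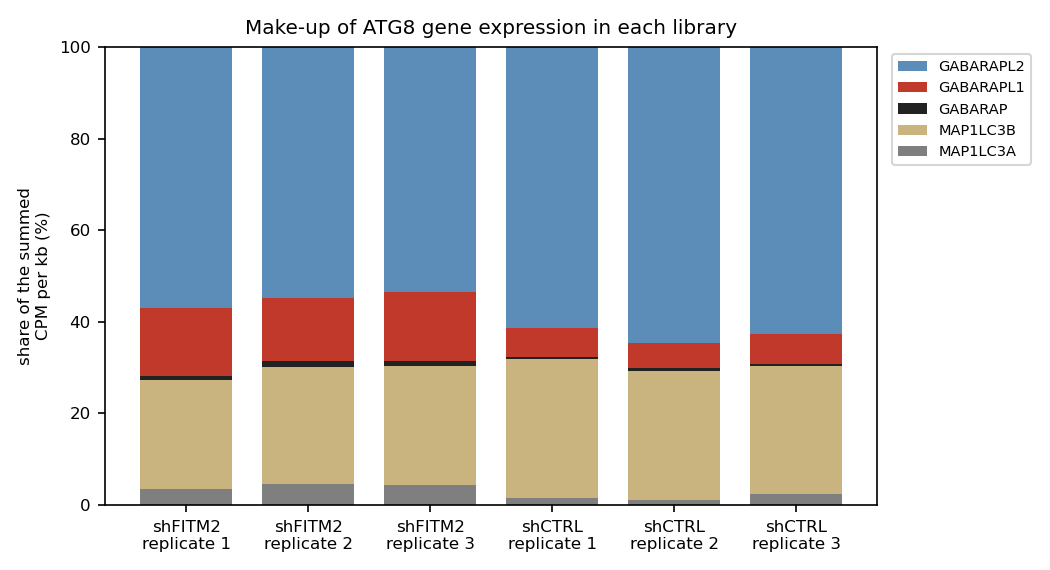
Share of each ATG8 gene in the summed CPM per kb of the 5 genes (y axis, %), 1 bar per library with shFITM2 at left and shCTRL at right. The red GABARAPL1 band takes 13.9% to 14.97% of the shFITM2 bars and 5.37% to 6.52% of the shCTRL bars. The GABARAP band rests on 7 to 19 reads in a library.

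Cargo receptor genes rose, fell or were not called, with OPTN showing the largest change. In the group fit 2 of 5 members were called higher and 1 lower (24.2% and 24.5% of all genes). With the GC offset the counts were the same (11.8% and 17.4% of all genes), but in part for other members. OPTN, the ubiquitin-binding receptor phosphorylated by TBK1 (ENSG00000123240, chromosome 10, 13099449 to 13138308, plus strand), had 35.6, 35.1 and 36.9 CPM in shFITM2 libraries and 24.3, 18.9 and 25.9 CPM in shCTRL libraries. The shFITM2 libraries lay close together and above every control. For OPTN this was a log2 fold change of 0.64 ± 0.115 (adjusted p = 0.000986) and 0.81 ± 0.111 GC-adjusted (adjusted p = 0.000107).

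SQSTM1, which encodes the receptor p62, was the most abundant member per kilobase in both groups, at 64.5 CPM per kb in shFITM2 and 43.2 CPM per kb in shCTRL. It had 508, 496 and 477 CPM in shFITM2 libraries and 333, 352 and 306 CPM in shCTRL libraries. The groups did not overlap and the log2 fold change was 0.58 ± 0.068 (adjusted p = 9.97e-05). With the GC offset it was 0.12 ± 0.105 (adjusted p = 0.45), and the adjusted levels of 424, 423 and 421 CPM in shFITM2 libraries lay within the 401, 439.7 and 324 CPM of shCTRL libraries. SQSTM1 shares 105 exon bases with MGAT4B on the opposite strand, which had 105% of its reads.

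NBR1, a larger receptor related to p62, had 215, 203 and 221 CPM in shFITM2 libraries and 207, 181 and 173 CPM in shCTRL libraries, so that the groups overlapped. Its log2 fold change was 0.19 ± 0.078 (adjusted p = 0.0643) and 0.36 ± 0.056 GC-adjusted (adjusted p = 0.000215). The group value of NBR1 was called without shCTRL replicate 1 or 3, or with no expression filter (adjusted p = 0.03, 0.0471 and 0.0359). TAX1BP1, a receptor that works with NBR1, had 169, 175 and 179 CPM in shFITM2 libraries and 199.7, 206 and 187 CPM in shCTRL libraries. It fell by 0.18 ± 0.066 and by 0.15 ± 0.048 GC-adjusted (adjusted p = 0.04 and 0.0284). Both TAX1BP1 calls were lost without shFITM2 replicate 1, 2 or 3 or shCTRL replicate 1 or 2 (adjusted p = 0.0754 to 0.15 and 0.0715 to 0.154). No expression filter, the DESeq2 Wald test and a replicate block also lost the group call (adjusted p = 0.102, 0.0892 and 0.109). Length in the offset lost the GC-adjusted call (adjusted p = 0.0645). CALCOCO2, the receptor NDP52, had 32.6, 30.9 and 35.7 CPM in shFITM2 libraries and 38.4, 32.3 and 29.6 CPM in shCTRL libraries, with −0.02 and 0.19 GC-adjusted (adjusted p = 0.904 and 0.142). The CALCOCO2 value with the GC offset was called without shCTRL replicate 1 (adjusted p = 0.0389).

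Both transcription factor genes rose in the group fit, and TFEB also with the GC offset. TFEB (ENSG00000112561, chromosome 6, 41683978 to 41736259, minus strand) had 29.1, 30.0 and 35.3 CPM in shFITM2 libraries and 14.1, 16.1 and 20.2 CPM in shCTRL libraries, without overlap. The log2 fold change was 0.90 ± 0.135 (adjusted p = 0.000332) and 0.48 ± 0.112 GC-adjusted (adjusted p = 0.00438). TFE3 had 79.4, 77.2 and 73.8 CPM in shFITM2 libraries and 51.1, 47.0 and 61.6 CPM in shCTRL libraries, and 0.53 ± 0.099 (adjusted p = 0.00119) but 0.01 ± 0.058 GC-adjusted (adjusted p = 0.94). Both factors are controlled largely by their location in the cell, which mRNA does not show. EPG5, a tether for fusion with lysosomes, had −0.03 and 0.08 and was called in neither fit (adjusted p = 0.8 and 0.468).

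In TMM-scaled CPM the groups did not overlap for 35 of the 42 tested members, 18 higher and 17 lower, against 59.0% of all genes (29.1% higher and 29.9% lower). With the GC offset this held for 26, 16 higher and 10 lower, against 43.3% of all genes (18.4% higher and 24.9% lower). Per kilobase, WDR45B came after SQSTM1 in both groups (40.0 CPM per kb in shFITM2 and 37.9 in shCTRL). Next were NBR1 and VMP1 in shFITM2 (25.4 and 24.1 CPM per kb), and VMP1, GABARAPL2 and NBR1 in shCTRL (26.3, 24.6 and 22.3 CPM per kb). ULK1 ranked 20th of 43 in shFITM2 and 32nd in shCTRL, and ATG101 19th and 29th. ATG10, GABARAP and ULK2 had under 1 CPM per kb in both groups, and MAP1LC3A had 1.53 CPM per kb in shFITM2 and 0.663 in shCTRL.

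Counts for 7 lists of genes around the core machinery follow, to be read against the 48.7% of all genes called in the group fit and the 29.2% called GC-adjusted. By direction those shares were 24.2% higher and 24.5% lower in the group fit, and 11.8% and 17.4% GC-adjusted. Differences between lists were not tested. For fusion of autophagosomes with lysosomes 7 of 14 genes were higher and 2 lower in the group fit, and 1 and 1 GC-adjusted. The lysosomal adaptor PLEKHM1 had 0.52 and −0.01 GC-adjusted, TECPR1 0.59 and −0.05, and the phosphatase gene INPP5E 0.70 and −0.01, all past the threshold without the offset only (adjusted p = 0.000964, 0.00101 and 0.00358). The genes called GC-adjusted, named after their values were seen, were VAMP8, a SNARE of autophagosome and lysosome fusion, and VPS39, a subunit of the HOPS tether. VAMP8 had 60.5, 63.1 and 62.0 CPM in shFITM2 libraries and 25.3, 22.6 and 40.3 CPM in shCTRL libraries, without overlap. It rose by 1.08 ± 0.202 and by 0.89 ± 0.193 GC-adjusted (adjusted p = 0.00397 and 0.019). The GC-adjusted VAMP8 call was lost without shFITM2 replicate 2 or shCTRL replicate 1 (adjusted p = 0.0552 and 0.0599). VPS39 had −0.04 (adjusted p = 0.64) and −0.17 GC-adjusted (adjusted p = 0.0338). That VPS39 call was lost without shFITM2 replicate 1, 2 or 3 or shCTRL replicate 1 or 2 (adjusted p = 0.0621 to 0.152). Length in the offset also lost it (adjusted p = 0.0734). Of 32 tested genes of mTORC1, Rag and AMPK signalling, which sense nutrients and act on ULK1 and TFEB, 6 were higher and 6 lower in the group fit, and 3 and 7 GC-adjusted. The Ragulator genes LAMTOR4 and LAMTOR3 had 0.78 and −0.89 (adjusted p = 5.34e-05 and 0.00103), and 0.25 and −0.45 GC-adjusted (adjusted p = 0.0214 and 0.00466). PRKAA1, a catalytic subunit of AMPK, had −0.56 (adjusted p = 0.00038) and −0.06 GC-adjusted (adjusted p = 0.36). The GC-adjusted LAMTOR4 call was lost without shFITM2 replicate 1, shFITM2 replicate 2 or shCTRL replicate 1 (adjusted p = 0.107, 0.092 and 0.0648) and with length in the offset (adjusted p = 0.113).

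Of 13 mitophagy genes 5 were higher and 3 lower in the group fit, and 3 and 3 GC-adjusted. PINK1, the kinase that marks damaged mitochondria, had 25.9, 20.5 and 19.8 CPM in shFITM2 libraries and 8.53, 6.60 and 10.9 CPM in shCTRL libraries. It rose by 1.35 ± 0.174 and by 0.89 GC-adjusted (adjusted p = 0.0002 and 0.000117). TBK1, the kinase of OPTN, fell while OPTN rose, with 36.8, 39.8 and 35.9 CPM in shFITM2 libraries and 59.1, 64.3 and 56.1 CPM in shCTRL libraries. On the log2 scale the change was −0.67 and −0.29 GC-adjusted (adjusted p = 0.00015 and 0.00606). FKBP8, a mitochondrial LC3-binding protein, had 0.99 and 0.18 (adjusted p = 0.00357 and 0.0295), and the GC-adjusted FKBP8 call was lost without shFITM2 replicate 1, 2 or 3 or shCTRL replicate 1 (adjusted p = 0.0668 to 0.183).

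Of 9 tested receptors for autophagy of the endoplasmic reticulum 4 were higher and 2 lower in the group fit, and 3 and none GC-adjusted. CALCOCO1, a relative of CALCOCO2, had 102, 100.4 and 96.1 CPM in shFITM2 libraries and 53.5, 48.1 and 53.6 CPM in shCTRL libraries. It rose by 0.94 ± 0.0759 and by 0.79 GC-adjusted (adjusted p = 2.08e-05 and 2.58e-07). RETREG2 rose by 0.58 and 0.41 (adjusted p = 0.000114 and 5.67e-05), and SEC62 had −0.48 and −0.02 (adjusted p = 0.000783 and 0.766). Of 8 other adaptors of selective autophagy 2 were higher and 3 lower in the group fit, and none and 1 GC-adjusted. TOLLIP had 0.48 and 0.06, the ferritin receptor NCOA4 −0.36 and −0.12, and LGALS8 −0.37 and −0.05, none of them called GC-adjusted. The GC-adjusted NCOA4 value was called without shCTRL replicate 2 or 3 (adjusted p = 0.034 and 0.0406).

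Of 9 tested regulators of the class III kinase complexes 1 was higher and 6 lower in the group fit, and 1 and 3 GC-adjusted. BCL2L1, whose product binds Beclin 1, had 221, 210.1 and 196 CPM in shFITM2 libraries and 124, 108 and 139 CPM in shCTRL libraries, rising by 0.76 and by 0.37 GC-adjusted (adjusted p = 0.000107 and 9.6e-05). BCL2, also in this list and named after its values were seen, had 1 to 15 reads in a library. It was called lower, with −1.88 and −1.74 GC-adjusted (adjusted p = 0.0172 and 0.0362). The alternatives were not examined for BCL2. TAB2 fell by 0.57 and by 0.19 (adjusted p = 0.000459 and 0.0178), and TAB3 had −0.58 and −0.21 (adjusted p = 0.000595 and 0.0853). The GC-adjusted TAB2 call was lost without shFITM2 replicate 1 or 3 or shCTRL replicate 1 or 2 (adjusted p = 0.0568 to 0.104). Of 7 paralogues outside the core set 3 were tested, and besides MAP1LC3B2 these were ATG16L2, with 0.66 (adjusted p = 0.00299) and −0.01, and ATG9B, which averaged 0.883 CPM in shFITM2 and 0.756 CPM in shCTRL and was not called. None of these 3 was called with the GC offset.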

How the data were processed

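Total RNA of HT29 cells was prepared with a directional library kit, per the labels' protocols. The authors deposited a single table of raw counts for each gene, with gene lengths in bases. Software listed in the submitters' processing notes, with no role stated, is DESeq2 1.16.1, featureCounts 1.5.0-p3, StringTie 1.3.3b and HISAT2 2.0.5, and the build listed is hg19. All 58735 rows with an Ensembl identifier nevertheless carry the GRCh38 position and strand of GENCODE release 29. How the counting treated strand and ambiguous reads is not given in the sources used here, so reads of overlapping genes cannot be told apart.

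Groups came from sample titles. Replicate pairs of a group had a chi-square per gene of 2.35 to 28.6, above sampling noise, so each library was kept as its own replicate. No label gives separate cultures, so p-values measure the spread between libraries, which may be technical. All genes past the edgeR filter (minimum count 10, total 15) were fitted together with TMM scaling and robust quasi-likelihood tests in edgeR 4.0.16 under R 4.3.3. Adjustment was by Benjamini-Hochberg over all of them, with a call at an adjusted p under 0.05. The standard error is the log2 fold change over the root of F. For the GC-adjusted fit, each library's departure from the mean log2 CPM (prior count 2) was smoothed against GC content by a spline with 6 degrees of freedom and entered as an offset. GC content was that of the longest coding GENCODE transcript, for 98.8% of tested genes. Fits were run on simulated counts with the same variability for all genes, without or with an equal GC trend in every shFITM2 library. The real libraries differed in GC slope, so these runs cannot vouch for the fits here. Alternatives were other scalings, filters and thresholds, DESeq2 1.42.0, limma-voom (limma 3.58.1), a replicate block, other GC terms and leaving out each library.

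Members and lists were chosen with earlier results of these data known. All members are reported, with up to 3 genes of smallest p from each neighbouring list, plus VAMP8, VPS39 and BCL2. Motifs were counted in RefSeq promoters of GRCh38.p14.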

Additional observations from a re-analysis of the deposited data

How the results depend on the processing

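At an adjusted p under 0.01 the group fit called 19 members, 13 higher and 6 lower, and the GC-adjusted fit 10, with 7 higher and 3 lower. With 1 library left out in turn, the group fit called 22 to 33 members, 14 to 17 higher and 7 to 16 lower. The GC-adjusted fit then called 10 to 19, with 7 to 12 higher and 3 to 7 lower. Over all genes and in either direction these fits called 5338 to 9008, and 2806 to 5615 GC-adjusted. The DESeq2 Wald test called 26, limma-voom 29 and a fit with no expression filter 27. Over all genes these called 6870 of 14809, 7421 of 14809 and 7292 of 28729. Length as well as GC content gave 17, and the GC content of the longest transcript of any kind 16. Over all 14635 genes these 2 settings called 4231 and 4317.

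The labels do not pair the replicate numbers, and deviations of same-numbered libraries from their group means had correlations of −0.0412, −0.00656 and −0.0653. With the replicate number as a block the group fit called 25 members, 15 higher and 10 lower, and the GC-adjusted fit 18. Over all genes and in either direction the block fits called 6729 of 14809, and 4183 of 14635 GC-adjusted.

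Values near 0 that were not called in the fit named changed sign. In the group fit, leaving out 1 library gave −0.027 to 0.061 for ATG14, −0.28 to 0.014 for ATG10, −0.11 to 0.088 for CALCOCO2, −0.078 to 0.0097 for EPG5 and −0.24 to 0.53 for ATG9B. GC-adjusted, it gave −0.033 to 0.15 for AMBRA1, −0.044 to 0.070 for ATG2B, −0.034 to 0.28 for ATG10, −0.10 to 0.060 for ATG4D, −0.019 to 0.022 for TFE3, −0.0796 to 0.068 for PLEKHM1, −0.16 to 0.022 for TECPR1, −0.079 to 0.023 for INPP5E, −0.064 to 0.0037 for SEC62 and −0.17 to 0.080 for ATG16L2. With the longest transcript of any kind GABARAPL2 had 0.0029, TFE3 −0.0046, INPP5E 0.10 and ATG16L2 0.10. With length in the offset PLEKHM1 had 0.016 and INPP5E 0.011. The cause was not tested. Depth limits MAP1LC3A, GABARAP, ATG10 and ULK2 most, with 4 to 85 reads in a library.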
